A study of Mus musculus with 18 samples.

Results

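The genotype difference in the first hour after TNF was measured in 4 of the 18 RNA sequencing libraries of the series. These are the RelA-TA-KI libraries at 0.5 and 1 h of TNF and the WT libraries at the same times, so there is 1 library per genotype and time and 2 pairs matched by time. All cells were primary mouse bone marrow-derived macrophages of strain C57BL/6, grown with 30% medium conditioned by L929 cells, for which the labels give an age of 12 days without saying whether it is that of the animals or of the culture. The tested cells carried RelA-TA-KI, a knock-in allele of the gene for the NF-kB subunit RelA. The labels do not spell out the change in the protein. The WT cells carried the normal gene. Both received TNF at 10 ng/ml. The other 14 libraries, which are unstimulated cells, later times of TNF and the times of LPS at 100 ng/ml in both genotypes, entered the statistical model and a few comparisons. The labels name no separate animals or cultures. The p-values therefore measure only the spread between these libraries, and genotype and culture cannot be told apart.

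TNF binding to its receptor activates the IKK kinases, which mark the IkB inhibitors for destruction and free NF-kB dimers to enter the nucleus. RelA is the subunit of the main dimer that carries transactivation domains, the stretches that recruit the machinery for transcription. In macrophages the first genes to respond encode cytokines, chemokines and adhesion molecules. They also include inhibitors such as IkBα and A20 that switch the pathway off again. TNF receptors activate MAP kinases in parallel, which drive the AP-1 and EGR families of immediate early transcription factors.

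The 4 libraries held 4928055 to 5163214 counts in RelA-TA-KI cells and 5803015 to 5847095 counts in WT cells, within the range of the series of 4663650 to 6721917. Of 20 macrophage identity genes, all were tested, 4 were higher in RelA-TA-KI cells, among them Lpl, Cd36 and Fcgr1, 1 was lower (Marco) and 15 did not pass, with a median log2 difference of 0.05. Csf1r, the receptor for the growth factor CSF1, had 860 and 888 CPM (counts scaled to library size with TMM factors) at 0.5 and 1 h in RelA-TA-KI cells, against 896 and 976 CPM in WT cells. Rela itself had 70.0 and 92.9 CPM in RelA-TA-KI cells, against 77.3 and 110 CPM in WT cells. Counts over the whole gene do not show whether the knock-in allele is present, so this gene does not check the labels. In bulk RNA, fewer cells of a type and less RNA per cell cannot be told apart.

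Of 11308 genes tested, 237 differed between the genotypes, or 2.1%, at an adjusted p under 0.05 (edgeR's quasi-likelihood test, RelA-TA-KI minus WT averaged over both times). Of these, 109 were higher in RelA-TA-KI cells (0.964% of the genes tested) and 128 were lower (1.13%). These shares are the background for the counts in every gene list of this report. The lists were chosen with earlier results of these data known, so their counts are descriptions only. The decreases were larger: their median log2 difference was -1.71, with 101 of 128 at 2-fold or more. For the increases the median was 0.69, with 33 of 109 at 2-fold or more. All 237 had the same sign at 0.5 h and at 1 h, which a call on the mean of these 2 pairs nearly ensures. Over all genes tested, 3559 of 11308 were below 0 in both pairs and 3520 above 0 in both. The lower genes included inflammatory genes that TNF induced and matrix genes that it did not. The higher genes included immediate early factors, interferon-stimulated genes and lipid genes. The count rests on having both times: without the 0.5 h pair 25 genes passed, and without the 1 h pair 38. Each of these fits has 1 early TNF library per genotype, which is assumed to vary like the libraries of the other conditions.

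Among 17 inflammatory cytokines tested, 2 were lower in RelA-TA-KI cells, none was higher and 15 did not pass. The median log2 difference of the list was -1.03, against -0.002 over all genes tested. Il1b encodes the fever-inducing cytokine IL-1β. It had 11.04 and 10.4 CPM at 0.5 and 1 h in RelA-TA-KI cells, against 102 and 36.4 CPM in WT cells. Both RelA-TA-KI libraries lay below both WT libraries, and the WT level was higher at 0.5 h than at 1 h while the RelA-TA-KI level was similar at both. Unstimulated cells had 0.54 CPM in RelA-TA-KI (3 reads) and 1.24 CPM in WT (10 reads), so the level was above the unstimulated one in both genotypes. The difference was -2.61 ± 0.32 on the log2 scale (SE, adjusted p = 0.0106). Tnfsf9 encodes 4-1BBL, a ligand that costimulates T cells. Its levels were 19.4 and 17.1 CPM in RelA-TA-KI cells, against 236 and 88.8 CPM in WT cells. Again the groups did not overlap, and the difference was -3.06 ± 0.34 (adjusted p = 0.0107). Relative to its own unstimulated library, Tnfsf9 at 0.5 h was 2.20-fold up in RelA-TA-KI cells and 32.3-fold up in WT cells. Neither Il1b nor Tnfsf9 passed when only the 4 or the 8 early libraries were fitted, or without a filter on low counts.

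Tnf itself did not pass, and its pattern over time differed from that of Il1b (named, like Il1a and Lif, after its values were seen). Tnf had 72.2 and 130 CPM in RelA-TA-KI cells, against 365 and 83.7 CPM in WT cells. Thus the RelA-TA-KI library was the lower one at 0.5 h and the higher one at 1 h, with log2 ratios of -2.34 and 0.63. Il1a, the gene of the related cytokine IL-1α, had 7.81 and 6.56 CPM in RelA-TA-KI cells, against 76.4 and 22.2 CPM in WT cells (-2.71 ± 0.62, adjusted p = 0.157). With DESeq2, Il1a and Lif, the gene of an IL-6 family cytokine, were also called lower, at log2 differences of -2.55 and -3.01.

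**Figure D1:**
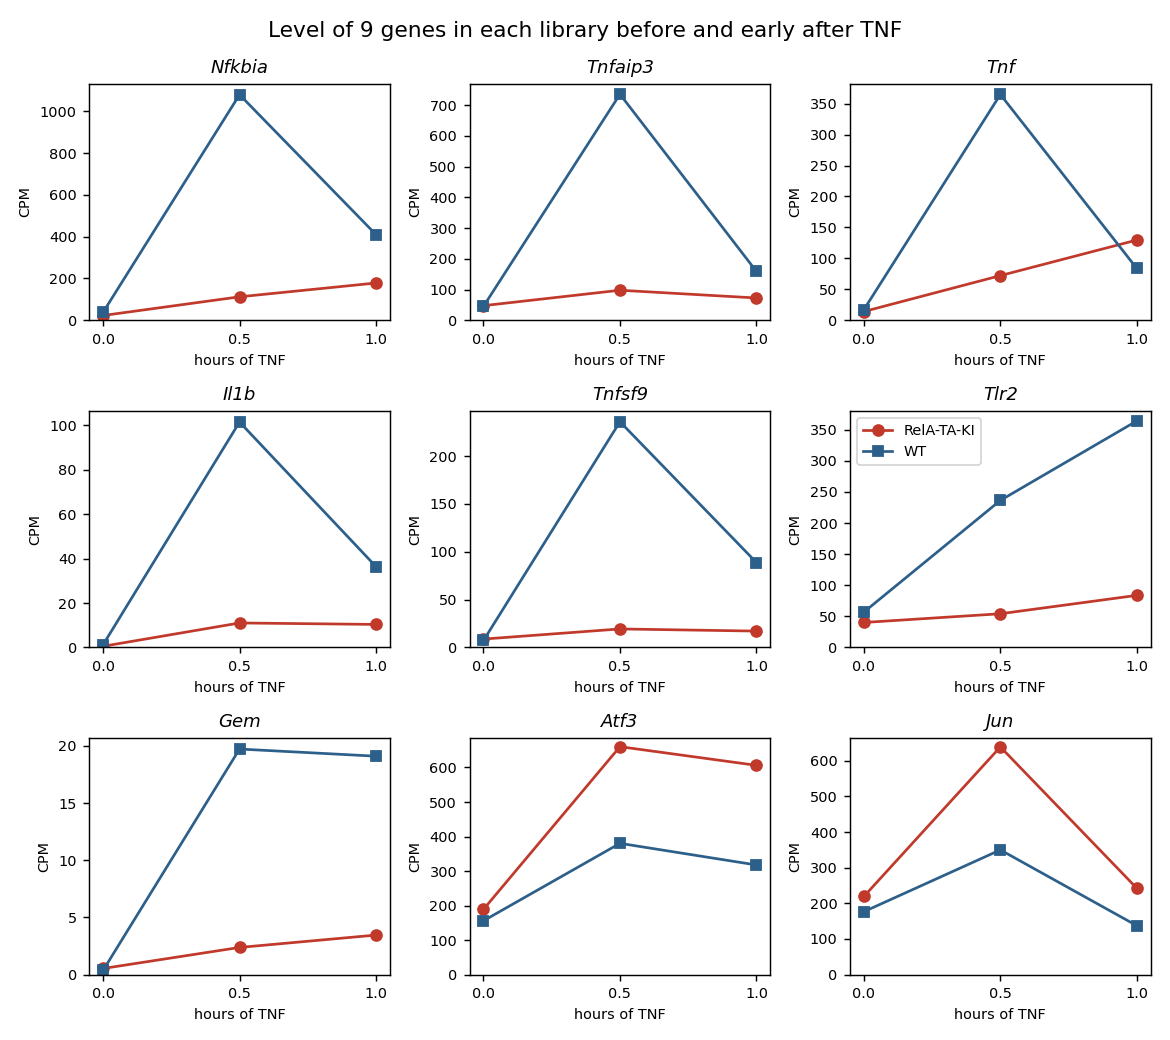
Level in CPM (vertical axis, linear, from 0) of 9 genes at 0, 0.5 and 1 h of TNF (horizontal axis), with RelA-TA-KI as red circles and WT as blue squares and 1 library per point. Nfkbia, Tnfaip3, Tnf, Il1b and Tnfsf9 peak at 0.5 h in the WT series and stay low at that time in the RelA-TA-KI series, while Atf3 and Jun are higher in the RelA-TA-KI series at both times of TNF.

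Of 18 chemokines and chemokine receptor genes tested, 1 was lower and 1 higher in RelA-TA-KI cells. The median log2 difference was -0.37. Cxcl1 attracts neutrophils. It had 2.04 and 1.27 CPM in RelA-TA-KI cells (12 and 7 reads), against 26.5 and 2.24 CPM in WT cells (180 and 15 reads). The libraries stood far apart at 0.5 h, with a log2 ratio of -3.64, and close together at 1 h, at -0.77. The fitted difference was -3.07 ± 0.41 (adjusted p = 0.00496), so it is carried by the 0.5 h pair. Cxcl2, a close relative of Cxcl1 and among the most induced genes, did not pass. It was also lower in RelA-TA-KI cells at 0.5 h, but slightly higher at 1 h. Its levels were 56.7 and 13.5 CPM in RelA-TA-KI cells, against 151 and 12.7 CPM in WT cells (adjusted p = 0.562).

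The CC chemokine Ccl4, which attracts monocytes and lymphocytes, went the other way. It had 379 and 159 CPM in RelA-TA-KI cells, against 256 and 90.4 CPM in WT cells. At each time the RelA-TA-KI library was the higher one, and the difference was 0.68 ± 0.09 (adjusted p = 0.00305). Its neighbours Ccl3 and Ccl7 had log2 differences of 0.77 and 0.81 and did not pass (adjusted p = 0.185 and 0.132), although DESeq2 called both higher. Ccrl2, a receptor that binds chemerin, had 23.4 and 28.2 CPM in RelA-TA-KI cells, against 117 and 128 CPM in WT cells. Its difference of -2.25 ± 0.37 missed the threshold (adjusted p = 0.0516). These last 3 genes were named after their values were seen.

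The promoters of 3 genes with large decreases are shown because NF-kB is known to act through sites that read GGG, then any 2 bases, then TTTCC. Each stretch is the 150 bases before the transcription start, 5′ to 3′ on the gene's strand, from RefSeq on GRCm38.p6, and capitals mark matches to that motif on either strand. They lie at chr5:90891095-90891244 (plus strand) for Cxcl1, chr2:129371140-129371289 (minus strand) for Il1b and chr15:103310439-103310588 (minus strand) for Gpr84.
Cxcl1: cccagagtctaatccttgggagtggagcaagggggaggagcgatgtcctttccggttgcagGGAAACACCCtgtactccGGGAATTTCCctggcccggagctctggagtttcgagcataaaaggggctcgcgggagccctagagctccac
Il1b: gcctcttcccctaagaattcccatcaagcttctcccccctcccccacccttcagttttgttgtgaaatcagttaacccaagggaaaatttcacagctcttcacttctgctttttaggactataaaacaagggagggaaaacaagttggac
Gpr84: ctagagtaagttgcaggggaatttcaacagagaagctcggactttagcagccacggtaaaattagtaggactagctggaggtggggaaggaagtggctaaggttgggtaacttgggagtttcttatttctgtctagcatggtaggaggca
The Cxcl1 promoter held 2 matches, 89 and 71 bases before the start. The windows of Il1b and Gpr84 held none, which says only that these letters do not occur there. In the 250 bases before the start, the motif occurred in 1.83% of the promoters of all genes tested (163 of 8909 with a RefSeq promoter). It occurred in 2 of 94 promoters of the lower genes (2.13%) and in 2 of 81 promoters of the higher genes (2.47%), both close to that background.

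Inhibitors and feedback regulators of NF-kB made up a list of 13 genes, all tested, of which none passed in either direction. Their median log2 difference was -0.88, against -0.02 in unstimulated cells. Nfkbia, the gene of IkBα, had 112 and 178 CPM in RelA-TA-KI cells, against 1079 and 410 CPM in WT cells. Both RelA-TA-KI values were below both WT values, and WT alone showed a peak at 0.5 h. The log2 ratio was -3.26 at 0.5 h and -1.20 at 1 h. The fitted difference was -2.23 ± 0.62 (adjusted p = 0.267). Tnfaip3 encodes A20, which edits ubiquitin chains on receptor complexes. Its levels were 97.8 and 72.7 CPM in RelA-TA-KI cells, against 736 and 159 CPM in WT cells, with log2 ratios of -2.91 and -1.13 (adjusted p = 0.226). Nfkbie, the gene of IkBε, kept lower levels at both times, with 4.93 and 8.38 CPM in RelA-TA-KI cells, against 26.1 and 75.5 CPM in WT cells (adjusted p = 0.308). The spread used by the test is how the genotype ratio varies between the 2 times within each of early LPS, late LPS, early TNF and late TNF. By DESeq2, 4 of the 13 were lower: Nfkbia, Nfkbie, Nfkbiz and Tnfaip3 (all but Nfkbia and Nfkbiz named after their values were seen). In the early LPS pairs, the log2 ratio of Nfkbia was -3.11 at 0.5 h and -1.96 at 1 h, and that of Tnfaip3 was -3.18 and -2.04.

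None of the 5 genes of NF-kB subunits and none of 24 genes of TNF receptor signalling passed. All 5 subunit genes had negative log2 differences, with a median of -0.61, from Relb at -1.20 (adjusted p = 0.305) to Rela at -0.19 (adjusted p = 0.616), the ends of the list. Nfkb1, which encodes p50, the usual partner of RelA, had 85.4 and 98.5 CPM in RelA-TA-KI cells, against 92.1 and 123 CPM in WT cells (adjusted p = 0.328). The receptor signalling list was centred at 0, with a median of -0.001. The receptor gene Tnfrsf1b had 189 and 290 CPM in RelA-TA-KI cells, against 232 and 419 CPM in WT cells (adjusted p = 0.496).

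In a list of 28 genes headed survival and adhesion targets, 4 were lower in RelA-TA-KI cells and none was higher. Lower genes made up 1.13% of all genes tested. Of the 4, only Cflar is a survival gene, and Gpr84, Marcksl1 and Saa3 have other known roles. The median log2 difference of the list was -0.75, against -0.004 in unstimulated cells. Gpr84, a receptor for medium-chain fatty acids, lies at chr15:103308236-103310438 (mm10). It had the largest decrease of the named genes with a mean log2 CPM of 1 or more. Its levels were 0.849 and 2.73 CPM in RelA-TA-KI cells (5 and 15 reads), against 17.8 and 25.4 CPM in WT cells (121 and 170 reads). The difference was -3.60 ± 0.31 (adjusted p = 0.000243). Marcksl1, a regulator of the actin cortex, had 31.4 and 38.4 CPM in RelA-TA-KI cells, against 116 and 146 CPM in WT cells. Its ratio was nearly the same at both times, -1.88 and -1.93 on the log2 scale, and the difference of -1.91 ± 0.10 had the smallest adjusted p of the decreases among the named genes (8.45e-06). Cflar encodes c-FLIP, which blocks caspase-8. It was lower by less, with 151 and 246 CPM in RelA-TA-KI cells, against 218 and 328 CPM in WT cells (-0.47 ± 0.08, adjusted p = 0.0169). Saa3, an acute phase gene, had 1 read in the 2 RelA-TA-KI libraries together and 41 reads in the 2 WT libraries. The scaled WT level was 34.6-fold that in RelA-TA-KI cells, with a 95% interval of 5.87 to 1398 that covers counting error only. The adhesion gene Icam1, which binds leukocyte integrins, had 23.3 and 34.1 CPM in RelA-TA-KI cells, against 115 and 287 CPM in WT cells. It did not pass (-2.71 ± 0.66, adjusted p = 0.205) and was named after its values were seen.

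Several other induced genes were lower. Tlr2, the receptor for bacterial lipoproteins, at chr3:83836272-83841767, had 54.2 and 83.8 CPM in RelA-TA-KI cells, against 236 and 364 CPM in WT cells. The log2 ratio was -2.12 at both times, and the difference was -2.12 ± 0.15 (adjusted p = 6.69e-05). Gem, a small GTPase that regulates calcium channels and the cytoskeleton, had 2.38 and 3.46 CPM in RelA-TA-KI cells, against 19.7 and 19.1 CPM in WT cells (-2.73 ± 0.20, adjusted p = 6.98e-05). Both genes also passed with either pair left out, as did Gpr84, Marcksl1 and Pde4b, with the spread then taken from the other conditions. Pde4b, a phosphodiesterase that breaks down cAMP, was the 1 member of 25 early phosphatase and mRNA decay genes that was lower. It had 15.6 and 42.4 CPM in RelA-TA-KI cells, against 95.5 and 120 CPM in WT cells (-1.96 ± 0.23, adjusted p = 0.0048), and did not pass when only the 4 or the 8 early libraries were fitted. Plk2, a polo-like kinase, was the 1 member that was higher. Its levels were 541 and 215 CPM in RelA-TA-KI cells, against 384 and 137 CPM in WT cells (0.57 ± 0.08, adjusted p = 0.00453).

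The immediate early AP-1 and EGR factors were more often higher than lower among those that passed. Of 28 tested, 5 were higher in RelA-TA-KI cells, 1 was lower and 22 did not pass, with a median of 0.14. Atf3, a stress-induced partner of AP-1, lies at chr1:191170296-191218039. It had 660 and 606 CPM in RelA-TA-KI cells, against 380 and 318 CPM in WT cells. The RelA-TA-KI library was the higher one at each time, and the difference was 0.86 ± 0.08 (adjusted p = 0.000244). Jun, the core AP-1 subunit, had 639 and 242 CPM in RelA-TA-KI cells, against 350 and 137 CPM in WT cells (0.84 ± 0.12, adjusted p = 0.00398). Fosb, a dimer partner of Jun, had 42.1 and 37.9 CPM in RelA-TA-KI cells, against 22.8 and 16.4 CPM in WT cells (1.03 ± 0.20, adjusted p = 0.028). The other increases were Jund at 0.59 and Klf6 at 0.31. The decrease was Maff, a small Maf protein that lacks a transactivation domain, at -1.07 ± 0.21 (adjusted p = 0.0371). Egr1, a zinc finger factor driven by MAP kinase signalling, had 627 and 27.3 CPM in RelA-TA-KI cells, against 367 and 15.8 CPM in WT cells, and did not pass (adjusted p = 0.66). For Atf3 and Jun the unstimulated log2 ratios were 0.28 and 0.31, smaller than the ratios of 0.80 and 0.87 at 0.5 h of TNF. Jund had 0.35 and 0.48, and Fosb had -0.58 (4 and 9 unstimulated reads) and 0.88. These genes were called on the early TNF libraries, and no gene passed edgeR's test of the early TNF effect minus the unstimulated effect.

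**Figure D2:**
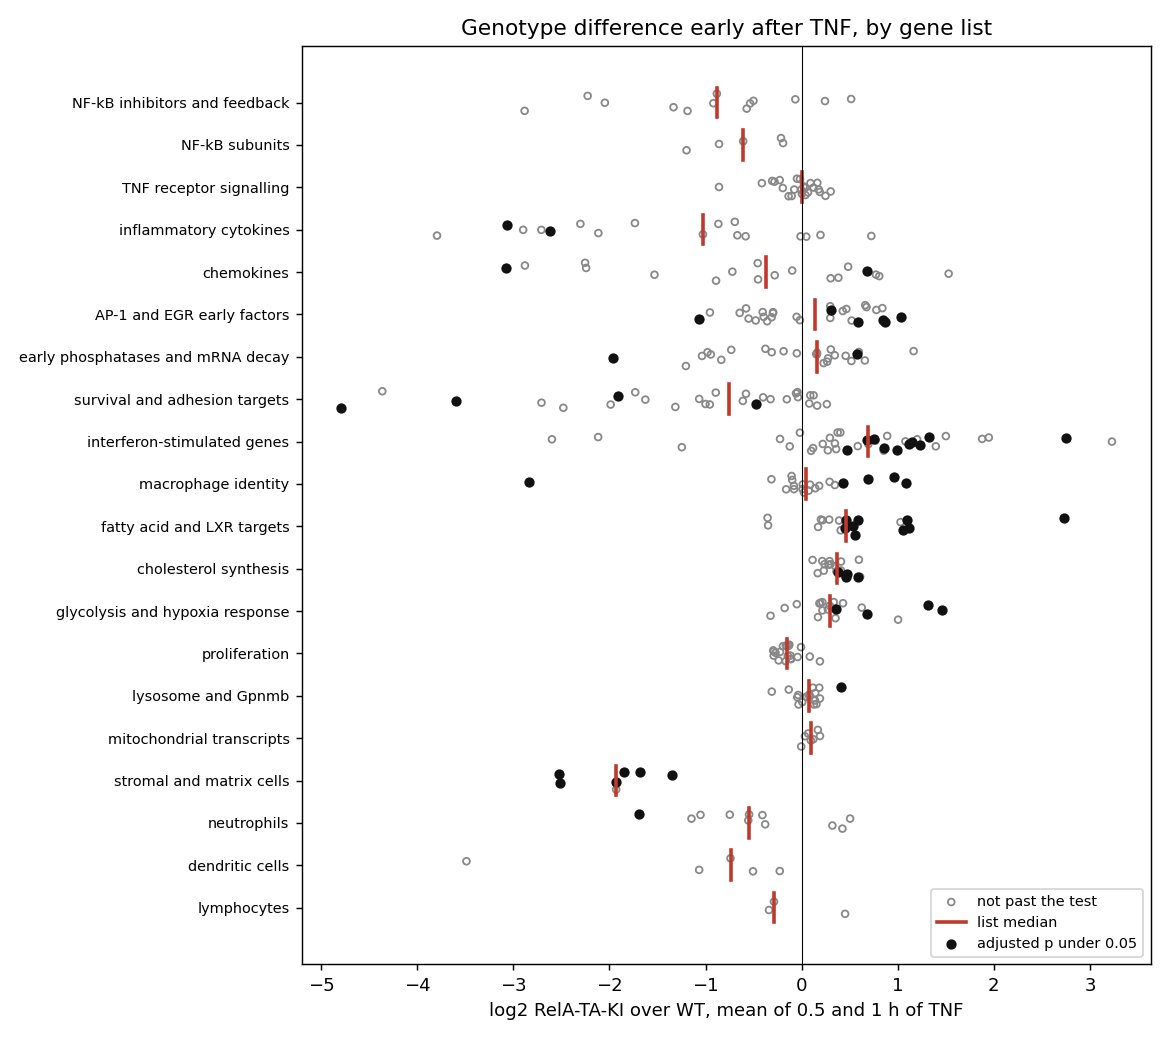
Log2 RelA-TA-KI over WT averaged over 0.5 and 1 h of TNF (horizontal axis) for the tested members of each gene list with more than 2 tested members (rows). Filled points passed an adjusted p of 0.05, open points did not, and red bars are list medians: the stromal list lies at -1.93, the NF-kB inhibitors lie at -0.88 without a filled point, and the interferon-stimulated and lipid lists lie above 0.

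Interferon-stimulated genes were a second group with increases. Of 37 tested, 10 were higher in RelA-TA-KI cells and none was lower. Higher genes made up 0.964% of all genes tested. The median log2 difference of the list was 0.69, against 0.31 in unstimulated cells. Its genes are antiviral effectors and their regulators. None of the 37 was called induced by TNF in this hour by the test of both genotypes together. Oasl2, which shares its fold with enzymes that sense double-stranded RNA, had 34.0 and 30.2 CPM in RelA-TA-KI cells, against 12.7 and 12.8 CPM in WT cells (1.33 ± 0.13, adjusted p = 0.000372). Irf7, the factor that amplifies type I interferon, had 16.8 and 17.5 CPM in RelA-TA-KI cells, against 8.98 and 10.0 CPM in WT cells (0.85 ± 0.13, adjusted p = 0.00758). It overlaps Phrf1 on the other strand, whose counts came to 16.9% of its own, and the strand setting of the counting is not given in the sources used here. Isg15, a ubiquitin-like modifier, differed by 0.99 and Oas3, which makes the signal for RNase L, by 0.76. Oasl1 had the largest increase of the named genes, 2.75 ± 0.50 (adjusted p = 0.0383), from 30 and 28 reads in RelA-TA-KI cells, against 3 and 7 reads in WT cells. Within the same list, Irf1 behaved differently. Irf1, a transcription factor of the interferon response, had 25.1 and 86.1 CPM in RelA-TA-KI cells, against 277 and 312 CPM in WT cells. It did not pass (-2.60 ± 0.50, adjusted p = 0.11) and was named after its values were seen. Relative to its own unstimulated library, Irf1 was 11.5-fold and 13.0-fold up in WT cells at 0.5 and 1 h. In RelA-TA-KI cells the folds were 0.93 and 3.20. Its absence from the induced genes therefore does not mean that it failed to rise.

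Among genes of lipid metabolism, those that passed were higher in RelA-TA-KI cells. In the list of fatty acid synthesis and LXR targets, 9 of 18 were higher and none was lower, with a median of 0.46 early after TNF and 0.45 in unstimulated cells. Scd1, which makes monounsaturated fatty acids, had 203 and 198 CPM in RelA-TA-KI cells, against 34.4 and 26.4 CPM in WT cells. In unstimulated cells it had 222 CPM in RelA-TA-KI cells and 24.1 CPM in WT cells. Its early difference was 2.73 ± 0.16 (adjusted p = 6.05e-05). Lpl, the secreted lipase that releases fatty acids from lipoproteins, had 2614 and 2526 CPM in RelA-TA-KI cells, against 1201 and 1212 CPM in WT cells (1.09 ± 0.06, adjusted p = 8.45e-06). Scd2, Fads2 and the sterol exporter Abcg1 differed by 1.11, 1.09 and 1.05. In the cholesterol synthesis list, 4 of 19 were higher by 0.38 to 0.58 and none was lower, among them Hmgcs1, which makes a precursor of mevalonate, at 0.46. The median of that list was 0.36 early after TNF and 0.23 in unstimulated cells, where none of these 4 passed. In the glycolysis and hypoxia list, 4 of 19 were higher and none was lower, led by the growth factor Vegfa at 1.46 ± 0.17 (adjusted p = 0.00143). The median of this list was 0.29 early after TNF and 0.45 in unstimulated cells, where Vegfa had a log2 ratio of 1.03.

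Other higher genes lay outside these lists. Ighm, the heavy chain of IgM, had 56.2 and 56.3 CPM in RelA-TA-KI cells, against 13.5 and 11.3 CPM in WT cells (2.18 ± 0.20, adjusted p = 0.000447). Of 11 lymphocyte markers 3 passed the filter on low counts and none of these differed past the threshold. They were Il7r at 0.45 (adjusted p = 0.0703), Cd4 at -0.29 (adjusted p = 0.402) and the B cell gene Cd79b at -0.34 (adjusted p = 0.814). Their summed level was 120 and 162 CPM in RelA-TA-KI cells, against 117 and 126 CPM in WT cells, and their part in the Ighm difference was not tested. Emp2, a tetraspan membrane protein, had 30.1 and 33.0 CPM in RelA-TA-KI cells, against 7.06 and 10.4 CPM in WT cells (1.85 ± 0.17, adjusted p = 0.000253). Rgs2, which dampens signalling by G proteins, had 174 and 87.2 CPM in RelA-TA-KI cells, against 67.1 and 38.8 CPM in WT cells (1.28 ± 0.11, adjusted p = 0.000244). The higher members of the macrophage identity list included Lpl, the Fc receptor Fcgr1 at 0.96 and the scavenger receptor Cd36 at 0.43. The scavenger receptor Marco was the 1 lower member, with 4.08 and 2.73 CPM in RelA-TA-KI cells, against 18.1 and 32.2 CPM in WT cells (-2.84 ± 0.25, adjusted p = 0.000244). Several of these differences were present before TNF. In unstimulated cells the log2 ratios were 2.14 for Ighm, 1.34 for Emp2, 0.66 for Rgs2 and -3.31 for Marco. Fcgr1 had 87.1 CPM in unstimulated RelA-TA-KI cells against 47.3 CPM in WT cells, and Cd36 had 1356 against 988 CPM. The proliferation list of 20 and the 7 tested mitochondrial transcripts had no gene past the test. In the lysosome list 1 of 18, the protease Ctsl, was higher at 0.41.

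Markers of stromal and matrix cells were lower in RelA-TA-KI cells. Of 7 tested, 6 passed and all 7 had a negative difference, with a median of -1.93. The summed level of the 7 was 99.2 and 98.9 CPM in RelA-TA-KI cells, against 352 and 309 CPM in WT cells. In unstimulated cells it was 100.0 CPM in RelA-TA-KI cells and 271 CPM in WT cells, so the groups stood apart before TNF. Col1a2, a chain of type I collagen, had 20.9 and 24.8 CPM in RelA-TA-KI cells, against 91.3 and 82.5 CPM in WT cells (-1.93 ± 0.17, adjusted p = 0.000244). Acta2, smooth muscle actin, had 6.12 and 6.74 CPM in RelA-TA-KI cells, against 37.1 and 36.4 CPM in WT cells (-2.51 ± 0.22, adjusted p = 0.000243). The defining fibroblast markers Col3a1, Thy1 and Pdgfra did not pass the filter on low counts. Of the 14 largest decreases among genes with a mean log2 CPM of 1 or more, Col4a1, Col4a2, Acta2, Postn and Hspg2 encode matrix or contractile proteins. Col4a1 and Col4a2 lie on opposite strands and overlap only in a short stretch at their starts. The part of stromal cells in the genotype difference was not tested. Of 11 neutrophil markers 1 was lower, the granule enzyme Mpo at -1.69 ± 0.36 (adjusted p = 0.0418). No tested marker of dendritic cells (5), lymphocytes (3) or mast cells (2) passed, and none of the 7 erythroid markers passed the filter.

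The TNF response of both genotypes together was used to mark the genes that TNF induced in this hour. It was called for 191 genes, 1.69% of those tested, and 103 of them (0.911%) rose at least 2-fold at 0.5 or 1 h. Of the 103 induced genes, 21 were lower in RelA-TA-KI cells (20.4%, against 1.13% of all genes) and 8 were higher (7.77%, against 0.964%). Both tests use the same early TNF libraries and the same estimate of spread for each gene. Genes with a small spread thus pass both more easily, so all genes tested are not an unbiased background for these shares. The other 74 did not pass. The median log2 ratio over the 103 was -0.30 at 0.5 h, -0.12 at 1 h and -0.03 in unstimulated cells. At 0.5 h 23 of the 103 were at least 2-fold lower and 1 was at least 2-fold higher in RelA-TA-KI cells. At 1 h these numbers were 17 and 6. Over all genes tested, 453 of 11308 were at least 2-fold lower and 179 at least 2-fold higher at 0.5 h, and 492 and 188 at 1 h. In both pairs, 53 induced genes had a ratio below 0 and 30 a ratio above 0, while 20 changed sign between the pairs. Both genotypes define the list, and a gene whose genotype ratio varied between times has a larger spread in this test and can miss it. Nfkbia was not in the list (adjusted p = 0.252 for its response). Tnfaip3 and Irf1 were not in it either, although they rose 16.2-fold and 11.5-fold in WT cells at 0.5 h. The counts over the 103 leave out such genes.

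**Figure D3:**
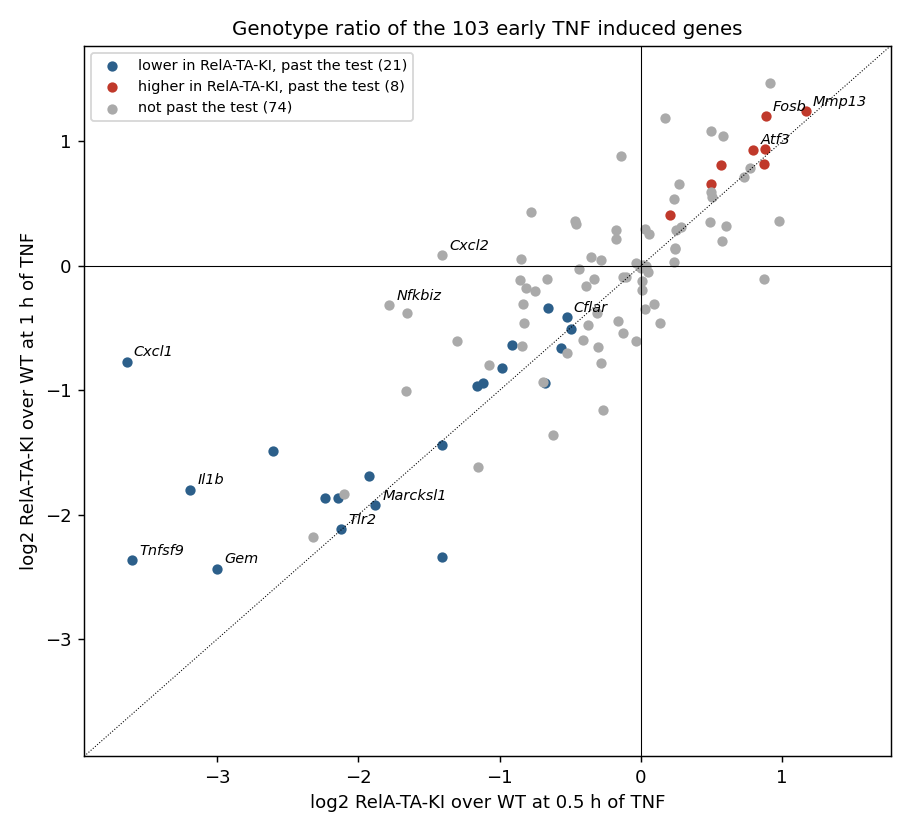
Log2 RelA-TA-KI over WT at 0.5 h (horizontal axis) and at 1 h (vertical axis) of TNF for the 103 genes induced early by TNF, 1 point per gene. Blue points are the 21 genes lower in RelA-TA-KI cells, red points the 8 that were higher and grey points the 74 that did not pass; Cxcl1 lies far above the dotted line of equal ratios, at -3.64 and -0.77, while Tlr2 lies on it.

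The induced genes past the test had known roles on both sides. The lower ones included Clec4e, a receptor for mycobacterial glycolipid, at -1.43, and the inflammasome genes Nlrp3 at -0.91 and Mefv at -2.03 (all 3 named after their values were seen). Spata13, an exchange factor for small GTPases, and Cdc42ep2, an effector of CDC42, differed by -2.03 and -1.95. The 8 higher ones were Mmp13 at 1.22, Fosb at 1.03, Hilpda at 0.91, Atf3 at 0.86, Jun at 0.84, Ccl4 at 0.68, Plk2 at 0.57 and Klf6 at 0.31. Mmp13, a collagenase, had 21.6 and 44.6 CPM in RelA-TA-KI cells, against 9.57 and 18.8 CPM in WT cells, and was also higher in unstimulated cells, with a log2 ratio of 1.48. Hilpda, a lipid droplet protein, had 43.1 and 36.4 CPM in RelA-TA-KI cells, against 23.4 and 18.9 CPM in WT cells. Of the 10 most induced genes within the list of induced genes, Cxcl1, Il1b, Gem and Cdc42ep2 were lower and Fosb was higher. Cxcl2, Egr1, Nfkbiz, Btg2 and Flrt3 did not pass.

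The called genes were also described in unstimulated cells, split by whether TNF induced them. The same early TNF and unstimulated libraries mark induction and give these ratios, and the split groups were not tested against each other. The 107 lower genes that were not induced had a median log2 ratio of -1.33 in unstimulated cells, and 102 of the 107 were below 0 there. The 21 induced ones had a median of -0.32 in unstimulated cells, with 15 of 21 below 0. Early after TNF the medians were -1.70 and -1.82. The 101 higher genes that were not induced had a median of 0.61 in unstimulated cells and 0.69 early after TNF, and the 8 induced ones had 0.29 and 0.85. Since the genes were called on the early TNF libraries, values there are expected to lie farther from 0 than elsewhere. The test of the difference itself, early TNF effect minus unstimulated effect, called no gene by edgeR, with 199 of 11308 at an unadjusted p under 0.05. It rests on a single unstimulated pair. DESeq2 called 2 genes, Tlr2 and Tnfsf9, and limma-voom called none. Tlr2 had a log2 ratio of -0.50 in unstimulated cells, and its difference of effects was -1.62 ± 0.26 (adjusted p = 0.542).

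**Figure D4:**
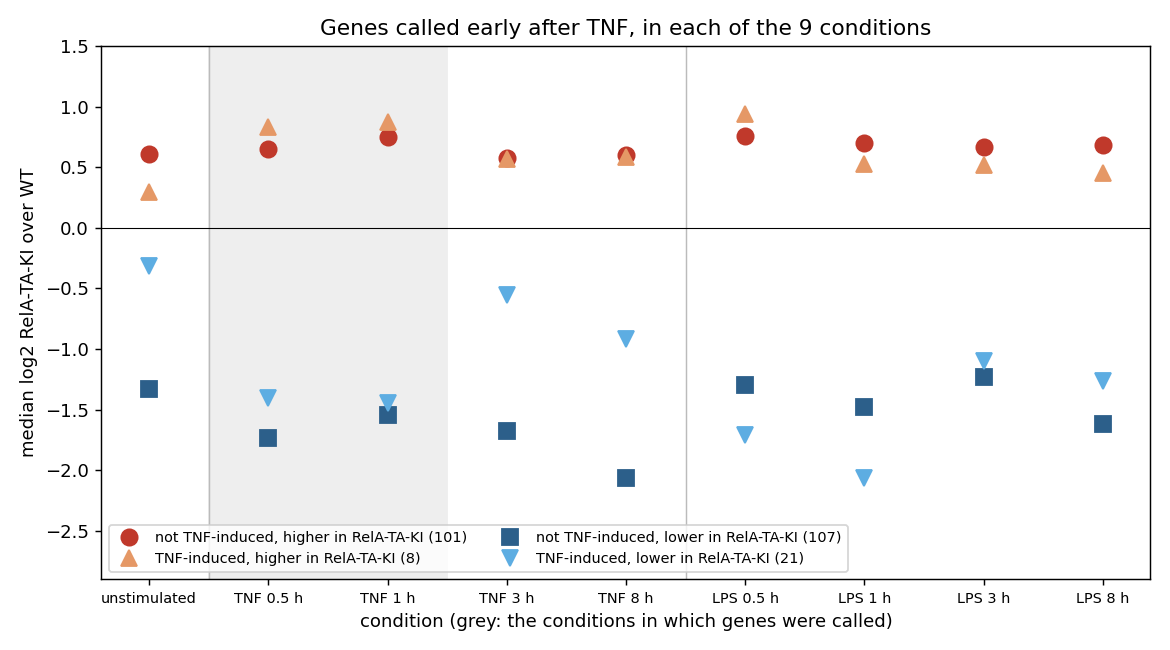
Median log2 RelA-TA-KI over WT (vertical axis) in each of the 9 conditions (horizontal axis) for the genes called early after TNF, split by direction and by induction, with the number of genes in the legend. The induced genes that were lower (light blue) lie at -0.32 in unstimulated cells and at -1.71 and -2.06 in the early LPS pairs, and the lower genes that were not induced (dark blue) lie below -1 in every condition.

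The called genes were also followed in the pairs whose own ratios did not enter the tested difference. In the early LPS pairs, all 109 higher genes were above 0 and all 128 lower genes below 0, at 0.5 h and at 1 h. Over all genes tested, 49.0% and 50.3% were above 0 in those pairs. Late after TNF, 98 and 100 of the 109 were above 0 and 123 and 121 of the 128 below 0, at 3 and 8 h. In the unstimulated pair, 107 of the 109 were above 0 and 117 of the 128 below 0. The LPS and late TNF pairs also set the spread of each gene. A gene whose ratio varied between them could more easily miss the test, so this agreement is no independent check. The test of the early TNF effect against the early LPS effect called no gene by edgeR, with 183 genes at an unadjusted p under 0.05, none by limma-voom and 1 by DESeq2 (the cytokine gene Il12b, named after its values were seen). Against the late TNF effect 2 genes passed, or 0.0177% of those tested, Skil and Egr2. DESeq2 called 14, 7 with a positive and 7 with a negative early minus late difference, among them Tnfsf9, Ccl4, Oasl2 and Skil, and limma-voom called Skil alone. Egr2 did not pass with limma-voom (adjusted p = 0.0672) or with library totals in place of TMM (adjusted p = 0.0527). Skil, which restrains SMAD signalling, had 61.2 and 115 CPM early in RelA-TA-KI cells, against 133 and 222 CPM in WT cells. At 3 and 8 h it had 104 and 108 CPM in RelA-TA-KI cells, against 90.0 and 80.1 CPM in WT cells, so its libraries changed order. Unstimulated cells had 30.3 CPM in RelA-TA-KI and 63.7 CPM in WT, so the WT library was the higher one before TNF too. Relative to its own unstimulated library, Skil rose early by 2.02-fold and 3.80-fold in RelA-TA-KI cells. The folds in WT cells were 2.09 and 3.48. Egr2, a zinc finger factor of the EGR family, had 27.2 and 12.0 CPM early in RelA-TA-KI cells, against 43.1 and 13.0 CPM in WT cells. At 3 and 8 h it had 25.2 and 10.7 CPM in RelA-TA-KI cells, against 5.92 and 1.80 CPM in WT cells. The late values rest on 121 and 54 reads in RelA-TA-KI cells and 37 and 10 reads in WT cells. Unstimulated cells had 5.02 CPM of Egr2 in RelA-TA-KI (28 reads) and 2.35 CPM in WT (19 reads).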

How the data were processed

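The deposited file holds whole-number counts per gene, which the authors did not normalize, in 1 column per library with mm10 positions per the file headers. The submitters' processing notes name cutadapt 1.12 for trimming, STAR for alignment, featureCounts 1.5.0 for counting, and DESeq2. Neither the strand setting nor the release of the gene annotation is given in the sources used here. Libraries were poly(A) RNA made with a stranded kit and single 50-base reads, per the labels' protocols. Of 45706 genes, filterByExpr (minimum count 10, minimum total 15) kept 11308.

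Genotype effects were tested in edgeR 4.0.16 and R 4.3.3 (TMM factors, robust quasi-likelihood fits, Benjamini-Hochberg adjusted p under 0.05). All 18 libraries entered 1 model with the 9 conditions as blocks and 5 genotype effects (unstimulated, early and late LPS, early and late TNF), leaving 4 residual degrees of freedom. Early is 0.5 and 1 h, late 3 and 8 h. The error printed is the log2 difference divided by the square root of its F statistic, an approximate SE. Log2 CPM used a prior count of 0.5. Induced genes passed an F test of both early times against unstimulated cells with a log2 change of 1 or more. The script was tested on simulated counts.

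Alternatives were DESeq2 1.42.0, limma-voom 3.58.1, other scalings and filters, and leaving out pairs or conditions. Named genes were the 14 largest changes each way with a mean log2 CPM of 1 or more, up to 4 called members per list or else the most expressed one, the 10 most induced genes, the 6 largest changes each way among induced genes, and the called differences of effects. Of 78 such genes, 3 share exons with another gene holding over 10% of their counts. The members and the 22 gene lists were chosen with earlier results of these data known.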

Additional observations from a re-analysis of the deposited data

Results flagged for a closer look

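Skil and Egr2 were flagged because their genotype effect differed between early and late TNF by a test of the difference itself. For Skil the early effect minus the late effect was -1.35 ± 0.14 on the log2 scale (SE, adjusted p = 0.0125). It passed with DESeq2, limma-voom, DESeq2 size factors, library totals and without the 3 h pair, and not without the 0.5, 1 or 8 h pair, with adjusted p from 1.14e-08 to 0.568 over the alternatives. The sign of both differences was negative in every alternative that gave a value. For Egr2 the difference was -2.69 ± 0.33 (adjusted p = 0.0378), and adjusted p ran from 2.03e-07 to 0.795 over the alternatives. It did not pass with limma-voom, with library totals or without any 1 of the 4 TNF pairs, and DESeq2 gave it no adjusted p.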

How the results depend on the processing

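Time is the block that pairs the genotypes in the model itself. No paired analysis by replicate number was possible because the labels give none. The 237 genes called early after TNF became 364 with no filter on low counts, 966 with the 4 early TNF libraries alone, 719 with the 8 early libraries alone, 25 without the 0.5 h pair and 38 without the 1 h pair. Of these 25 and 38, 24 and 35 were among the 237. DESeq2 called 201 and limma-voom 231. With library totals in place of TMM, 37.6% of 213 calls were higher in RelA-TA-KI cells, against 46.0% with TMM. Against early LPS, DESeq2 gave 1 gene in place of 0. Against late TNF, no filter gave 37 genes, DESeq2 14, limma-voom 1, library totals 1, and leaving out the 0.5, 1 or 8 h pair 0 (the last added after the data were seen), in place of 2. Against unstimulated cells, no filter and DESeq2 each gave 2 in place of 0. The TNF response fell to 63 genes without the 1 h pair, and the induced genes to 50, or to 40 with a log2 change of 2. The induced genes that were lower in RelA-TA-KI cells numbered 37 with DESeq2, 5 without the 0.5 h pair, 11 without the 1 h pair and 10 with a log2 change of 2, in place of 21, and those higher 1, 1 and 2 for the last 3 settings, in place of 8. The cause of these changes was not tested. Of the 78 named genes, Cxcl2 turned to 0.090 without the 0.5 h pair and Kit to -0.043 without the 1 h pair, and the TNF response of Jun turned to -0.11 without the 0.5 h pair. All other named genes kept their direction under every setting. With 4928055 to 5847095 counts in the 4 libraries, genes under a few CPM rest on few reads.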
